A study of Homo sapiens with 4 samples.

Results

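The 9 genes TP53INP1, ZMAT3, MDM2, SESN1, FAS, GDF15, BTG2, RRM2B and XPC are textbook targets of the transcription factor p53, and were taken by symbol from the 28103 genes of the deposited count table. They were followed in HEL, a human erythroleukaemia line labelled as erythroblast, by poly(A) RNA-seq of 2 Ctrl libraries (genotype WT) and 2 AFF4 knockdown libraries. AFF4 holds together the super elongation complex, which helps RNA polymerase II to leave its paused state near promoters, and the study's title names that release as its subject. The libraries of both groups came from the same line under one growth protocol. The sources used here do not give how AFF4 was depleted or whether a knockdown library stands for 1 clone or a pool. Since no label says that libraries came from separate cultures, p-values measure only how far these libraries spread, which could be technical.

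p53 is kept low by MDM2, a ubiquitin ligase that is itself a p53 target, and accumulates after DNA damage and other stresses. It then binds response elements in promoters and first introns and raises genes of growth arrest, death, repair and metabolism. Whether p53 acts on them in these cells was not tested.

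The sequences that define such targets were looked up first, because p53 recognises its targets through a defined DNA element. RefSeq promoter windows (GRCh38.p14, 250 bases before to 50 after a start) were present for 7 of the 9 genes and were searched for the p53 consensus element, a pair of abutting half-sites of 10 bases each. Up to 3 mismatches were allowed with the core C and G of each half-site kept, and the element reads the same on both strands. The limit of 3 was chosen after the matches were seen. A match was found in 4 of the 7 members, compared with 373 of 27305 genes in the whole table of windows (1.37%) and 10 of 54 other p53 targets. A gene counted if any of its windows matched, and genes differ in their number of windows. MDM2 had 4, SESN1 and FAS 3 each, ZMAT3 2, and GDF15, BTG2 and XPC 1 each. Of all 35116 windows 392 held a match (1.12%). With at most 2 mismatches the members with a match were 2 of 7 (0.359% of all genes), and with at most 4 they were 5 of 7 (4.92%). Since the members were chosen as textbook p53 targets, these shares are a description and not evidence that p53 acts on them. The matches are printed 5′ to 3′ on the strand of the gene, with the matched 20 bases in capitals.

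MDM2 (chr12:68808903-68808962, plus strand, intronic in GENCODE v29, match 94 to 75 bases before an internal start): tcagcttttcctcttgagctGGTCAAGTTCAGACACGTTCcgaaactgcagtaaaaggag
SESN1 (chr6:109008998-109009057, minus strand, intronic, match 49 to 30 bases before an internal start): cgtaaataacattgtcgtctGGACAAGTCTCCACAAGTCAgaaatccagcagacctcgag
FAS (chr10:88991309-88991328, plus strand, inside an annotated exon, match 122 to 103 bases before an internal start): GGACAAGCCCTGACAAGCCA
GDF15 (chr19:18386186-18386205, plus strand, exonic, bases 29 to 48 after the RefSeq start): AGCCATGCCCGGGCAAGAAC

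The MDM2 and FAS matches differ from the consensus at 2 positions, and those of SESN1 and GDF15 at 3. These 4 genes did not share a direction in their RNA values. No match was found in the windows of ZMAT3, BTG2 and XPC, which says only that the element is not in those windows at this limit.

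Read depth was 14903878 to 19129008 assigned reads per library. AFF4 had counts of 1650 and 1033 in the Ctrl pair and 338 and 319 in the knockdown pair, a log2 fold change of -2.07 ± 0.19 (SE; adjusted p = 0.0268 by the edgeR quasi-likelihood test), so the targeted gene fell in the libraries labelled as knockdown. With only genes of at least 5 CPM (counts per 1000000 reads of the scaled library) in 2 libraries tested, its adjusted p was 0.0552. All 10 erythroid markers were tested, 5 with a negative and 5 with a positive log2 fold change and a median of -0.04. The 3 globins summed to 11315.4 and 12876.4 CPM in the Ctrl libraries and 7457.3 and 7284.5 CPM in the knockdown libraries, whereas the other 7 markers summed to 1968.6 and 2096.9 CPM against 2280.5 and 2282.8 CPM. Of those 7, the erythropoietin receptor EPOR had 0.76 and the transferrin receptor TFRC 0.39, with edgeR adjusted p of 0.251 and 0.263. All 7 megakaryocyte markers were tested, 5 with a negative and 2 with a positive log2 fold change and a median of -0.55. They summed to 2076.2 and 2876.4 CPM in the Ctrl libraries and 1951.8 and 2072.9 CPM in the knockdown libraries. The largest share of these sums was ITGA2B, with 880.7 and 1545.1 CPM in the Ctrl libraries and a log2 fold change of -0.16. The fetal globin HBG1 (log2 fold change -0.86, edgeR adjusted p = 0.0394) and the platelet integrin ITGB3 (-0.87, adjusted p = 0.0415) were the markers that fell in the knockdown by this test. Of 15 markers of other cell types 7 passed the filter and 0 passed the test. CD3D, CD3E and COL1A2 were at 0 in every library, and the summed level of the 15 was 294.2 to 299.8 CPM in the Ctrl pair and 244.9 to 259.2 CPM in the knockdown pair, most of it PECAM1. The endothelial and platelet gene PECAM1 (-0.20) and the keratins KRT18 (-0.29) and KRT8 (-0.73) had the smallest p-values there, with edgeR adjusted p of at least 0.175. The part of these marker shifts in the values of the members was not tested.

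None of the 8 members that could be tested passed the edgeR test over the whole table, which called 40 of 13572 genes lower (0.295%) and 47 higher (0.346%). At an unadjusted p under 0.05, 2 members were lower (TP53INP1 and ZMAT3) and 0 higher, beside 8.19% and 6.79% of all tested genes. DESeq2 called these 2 lower (adjusted p = 2.16e-04 and 0.0146), as it did 1.64% of all genes with an adjusted p, and limma-voom called 0. The members went in both directions. Their log2 fold changes ran from -1.09 to 0.45, with a median of -0.12, beside a median of -0.01 over all tested genes. Both knockdown libraries lay below both Ctrl libraries for 3 of 8 members and above them for 2, where 23.0% and 23.1% of all tested genes did so. All values are relative to the bulk of genes, since the scaling of the libraries sets that bulk to no change, and in bulk RNA fewer cells of a kind cannot be told apart from less RNA per cell.

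**Figure D1:**
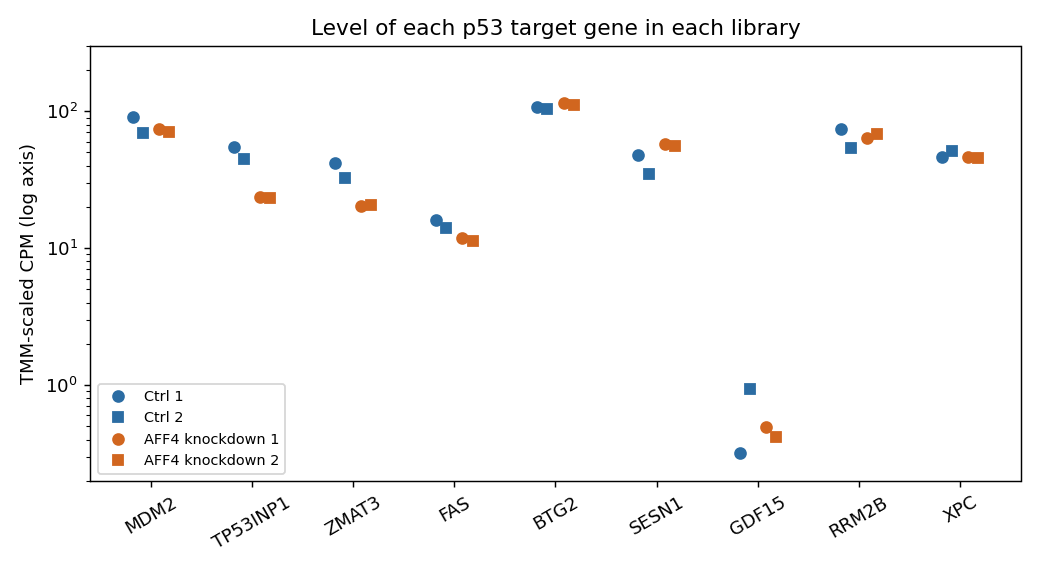
Level of each of the 9 genes in each library, in TMM-scaled CPM on a log axis (blue, Ctrl; orange, knockdown; circles, replicate 1; squares, replicate 2). TP53INP1 and ZMAT3 sit near 20 CPM in both knockdown libraries, below their Ctrl libraries, whereas GDF15 is under 1 CPM throughout.

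MDM2 (chromosome 12, 68808176 to 68850686, plus strand) closes the feedback loop on p53. Its counts were 1708 and 1039 in the Ctrl pair and 1335 and 1183 in the knockdown pair, or 91.5 and 69.6 CPM against 73.8 and 70.3 CPM. The knockdown libraries lay between the Ctrl libraries, so the groups overlapped. The log2 fold change was -0.16 ± 0.18 (SE; adjusted p = 0.770 by edgeR), and it changed sign without Ctrl 1, to 0.05. The opposite-strand gene CPM shares 133 exonic bases with MDM2 but had at most 3 reads in any library. The same-strand processed pseudogene AC025423.2 shares 439 exonic bases with MDM2, and the antisense gene AC025423.4 shares 785. Neither has counts of its own here, so their part in the MDM2 reads was not tested.

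TP53INP1 and FAS belong to the death and autophagy arm. TP53INP1 (chromosome 8, 94925972 to 94949411, minus strand) encodes a stress-induced protein that promotes p53 phosphorylation and autophagy. Its counts were 1026 and 665 in the Ctrl pair and 427 and 392 in the knockdown pair, or 54.9 and 44.5 CPM against 23.6 and 23.3 CPM. Both knockdown libraries were near one value and well under the lower Ctrl library. The mean went from 49.7 ± 7.37 to 23.4 ± 0.225 CPM (SD, n = 2 each), a 2.12-fold lower level. The log2 fold change was -1.09 ± 0.19 (SE), with an edgeR adjusted p of 0.0636 that missed the threshold. Among all tested genes 1.55% had a lower fold change.

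FAS (chromosome 10, 88990582 to 89015785, plus strand) is the death receptor for FAS ligand. It had 301 and 210 reads in the Ctrl pair and 213 and 190 in the knockdown pair, or 16.1 and 14.1 CPM against 11.8 and 11.3 CPM. The groups did not overlap, but the log2 fold change of -0.39 ± 0.19 (SE) did not pass (edgeR adjusted p = 0.413). FAS shares 380 exonic bases with the opposite-strand gene ACTA2. Whether the counting used strand is not stated, so reads of overlapping genes on opposite strands cannot be told apart, and further antisense genes annotated over exons of MDM2, SESN1 and XPC were not analysed here. ACTA2 itself had 87 to 114 reads per library and a log2 fold change of 0.11 ± 0.26 (SE).

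ZMAT3 and BTG2 act on RNA and growth. ZMAT3 (chromosome 3, 179017223 to 179072279, minus strand) is a zinc finger RNA-binding protein that acts in splicing and mRNA stability. Its counts of 787 and 482 in the Ctrl pair and 368 and 346 in the knockdown pair correspond to 42.1 and 32.3 CPM against 20.3 and 20.6 CPM. As for TP53INP1, the knockdown pair was tight and lay under both Ctrl libraries. The mean went from 37.2 ± 6.98 to 20.4 ± 0.149 CPM (SD, n = 2 each), 1.82-fold lower. The log2 fold change was -0.86 ± 0.20 (SE; adjusted p = 0.112 by edgeR), and 2.92% of tested genes were lower still.

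BTG2 (chromosome 1, 203305491 to 203309602, plus strand) is an antiproliferative factor that recruits the CCR4-NOT deadenylase to mRNA. It had 2013 and 1549 reads in the Ctrl pair and 2067 and 1884 in the knockdown pair, or 107.8 and 103.7 CPM against 114.2 and 111.9 CPM. The knockdown libraries were slightly above both Ctrl libraries. The log2 fold change of 0.10 ± 0.14 (SE) did not pass (edgeR adjusted p = 0.837).

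SESN1 and GDF15 stand for the metabolic and secreted outputs. SESN1 (chromosome 6, 108986437 to 109094819, minus strand) is a sestrin, which restrains mTORC1 through the GATOR complexes. Its counts were 903 and 522 in the Ctrl pair and 1047 and 944 in the knockdown pair, or 48.3 and 34.9 CPM against 57.9 and 56.1 CPM. Both knockdown libraries exceeded both Ctrl libraries, although the Ctrl pair was wide. The log2 fold change was 0.45 ± 0.20 (SE; adjusted p = 0.360 by edgeR), the highest among the 8, and 90.8% of tested genes were lower. It moved between 0.24 without Ctrl 2 and 0.71 without Ctrl 1.

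GDF15 (chromosome 19, 18374731 to 18389176, plus strand) is a secreted cytokine of the TGF-beta superfamily. It had 6 and 14 reads in the Ctrl pair and 9 and 7 in the knockdown pair, and did not pass the filter on low counts. The exact Poisson 95% intervals, which cover counting error only, were 0.118 to 0.699 CPM and 0.512 to 1.57 CPM in the Ctrl libraries and 0.227 to 0.944 CPM and 0.167 to 0.857 CPM in the knockdown libraries. These intervals overlap between the groups, but overlap is not a test, and after the filter GDF15 had no test of a group difference.

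RRM2B and XPC supply DNA repair. RRM2B (chromosome 8, 102204502 to 102239118, minus strand) is the p53-inducible small subunit of ribonucleotide reductase. It had 1394 and 799 reads in the Ctrl pair and 1163 and 1141 in the knockdown pair, or 74.6 and 53.5 CPM against 64.3 and 67.8 CPM. The knockdown values lay inside the Ctrl range, and the log2 fold change was 0.04 ± 0.20 (SE; adjusted p = 0.951 by edgeR). It was -0.18 without Ctrl 2 and 0.31 without Ctrl 1.

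XPC (chromosome 3, 14145147 to 14178783, minus strand) detects bulky lesions in global-genome nucleotide excision repair. It had 860 and 762 reads in the Ctrl pair and 845 and 761 in the knockdown pair, or 46.0 and 51.0 CPM against 46.7 and 45.2 CPM. The groups overlapped, with a log2 fold change of -0.08 ± 0.16 (SE; adjusted p = 0.896 by edgeR). XPC shares 318 exonic bases with the opposite-strand gene LSM3, whose log2 fold change was -0.22 ± 0.27 (SE).

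**Figure D2:**
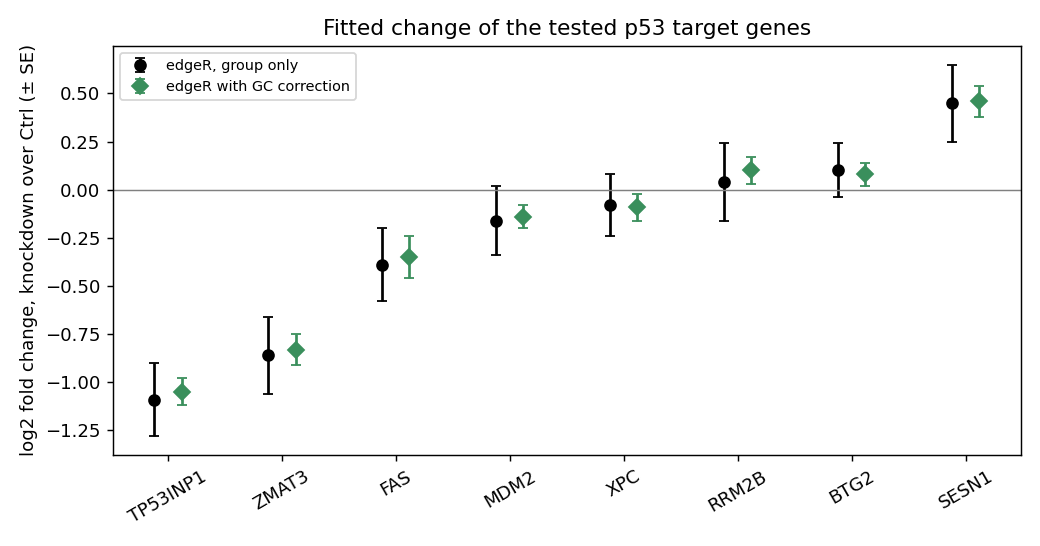
Log2 fold change (knockdown over Ctrl) with its standard error for the 8 tested genes, from the edgeR fit with the group as its only term (black) and with the GC correction (green). The order from TP53INP1 at -1.09 to SESN1 at 0.45 is the same in both fits apart from BTG2 and RRM2B, and the errors are narrower with the correction.

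Levels can be compared between the genes only per length. As RPKM, that is CPM per kilobase of exon with GENCODE v29 lengths, BTG2 was the most abundant in Ctrl (38.4 ± 1.05, mean ± SD, n = 2), and GDF15 the least (0.302 ± 0.209). RRM2B (11.5), XPC (10.1), TP53INP1 (8.76), SESN1 (8.13) and MDM2 (6.06) followed BTG2, and neighbours among these 5 overlapped. ZMAT3 (3.86) and FAS (3.55) overlapped with each other and lay under MDM2. In the knockdown the order was BTG2 (41.0), RRM2B (11.9), SESN1 (11.1), XPC (9.58), MDM2 (5.42), TP53INP1 (4.13), FAS (2.71), ZMAT3 (2.12) and GDF15 (0.219), and no neighbours overlapped. TP53INP1 thus stood above MDM2 in both Ctrl libraries and below it in both knockdown libraries on this per-length scale. The lengths join the exons of all annotated transcripts of a gene, 13284 bases for MDM2 and 5676 for TP53INP1, and the order depends on them. In reads, TP53INP1 was below MDM2 in every library.

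The Ctrl pair was the more spread of the 2 groups. Across the 8 members the median absolute log2 difference between the 2 Ctrl libraries was 0.34, and between the 2 knockdown libraries 0.05 (0.34 and 0.09 over all tested genes). Ctrl 2 was below Ctrl 1 in 7 of 8 members, by up to 0.48 on the log2 scale (RRM2B), and above it only in XPC, by 0.15. This difference ran with the GC content of transcripts. In the bin of lowest GC content among 5 equal bins of tested genes, Ctrl 2 lay a median of -0.39 from Ctrl 1, and in the highest bin 0.67, whereas the knockdown pair differed by -0.05 and 0.11. Of the 8 members 6 fell in the lowest 2 bins, namely TP53INP1, ZMAT3, FAS and RRM2B (36.44% to 39.55% GC) and MDM2 and SESN1 (41.88% and 43.43%).

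With a GC trend removed from each library, the estimates moved little and the errors shrank. TP53INP1 had -1.05 ± 0.07 (SE; adjusted p = 2.23e-04 by edgeR) and ZMAT3 -0.83 ± 0.08 (adjusted p = 6.22e-04), so both passed as lower. SESN1 had 0.46 ± 0.08 (adjusted p = 0.00689) and passed as higher, while FAS (-0.35 ± 0.11, adjusted p = 0.0532) did not. MDM2, BTG2, RRM2B and XPC had estimates between -0.14 and 0.10 and adjusted p between 0.140 and 0.350. These 2 lower and 1 higher calls among 8 members stand beside 14.0% of all tested genes called lower and 14.2% higher in the same fit.

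Counts taken relative to MDM2 within a library need no scaling between libraries. MDM2 was chosen as the reference after its values were seen, and this ratio has no test, since the smallest two-sided p that an exact permutation of 2 against 2 libraries allows is 0.333. TP53INP1 had 0.601 and 0.640 reads per MDM2 read in the Ctrl pair and 0.320 and 0.331 in the knockdown pair. ZMAT3 had 0.461 and 0.464 in the Ctrl pair and 0.276 and 0.292 in the knockdown pair. For both genes the Ctrl libraries, which were far apart in CPM, were close on this ratio, and the groups did not overlap. How many of all tested genes separate on this ratio was not counted, so the separation cannot be read as particular to these genes. SESN1 went the other way, with 0.529 and 0.502 in the Ctrl pair and 0.784 and 0.798 in the knockdown pair. RRM2B had 0.816 and 0.769 against 0.871 and 0.964, and FAS 0.176 and 0.202 against 0.160 and 0.161. BTG2 (1.18 and 1.49 against 1.55 and 1.59) did not overlap either, and XPC (0.504 and 0.733 against 0.633 and 0.643) did. From Ctrl 1 to Ctrl 2, log2 of the ratio differed by 0.34 for BTG2 and 0.54 for XPC. For the other members it differed by -0.09 (RRM2B) to 0.20 (FAS). The ratio is not corrected for GC content, which was 41.88% for MDM2, 50.33% for BTG2 and 52.45% for XPC. For TP53INP1 and ZMAT3 it was 39.55% and 39.46%. The part of the GC trend in these differences was not tested. The ratios show how TP53INP1, ZMAT3 and SESN1 stood to MDM2 in these libraries, not which gene of a pair moved.

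**Figure D3:**
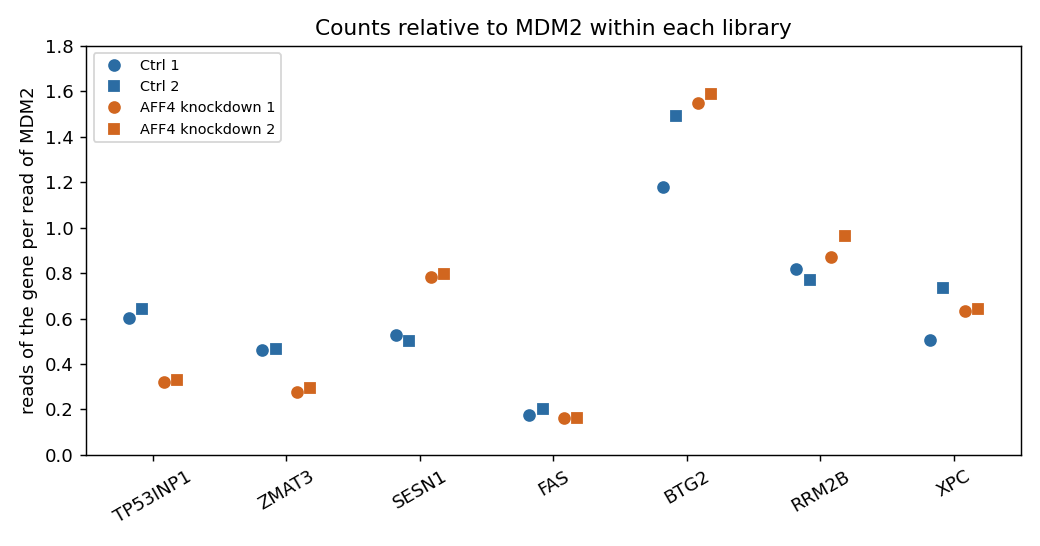
Reads of each gene per read of MDM2 in each library (blue, Ctrl; orange, knockdown; circles, replicate 1; squares, replicate 2; linear axis from 0). The Ctrl and knockdown libraries separate downwards for TP53INP1, ZMAT3 and FAS and upwards for SESN1, BTG2 and RRM2B, and XPC overlaps.

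Leaving out a library changed the calls more than any rescaling of the libraries did. Without Ctrl 1, TP53INP1 and ZMAT3 passed as lower and SESN1 and RRM2B as higher, 2 of 8 each way in a fit that called 22.5% of all genes lower and 21.5% higher. Without Ctrl 2, TP53INP1, ZMAT3, MDM2 and FAS passed as lower and SESN1 as higher, in a fit that called 23.9% of all genes lower and 24.5% higher. These calls cannot be read as a result about the members, since each fit rests on a lone Ctrl library. Those fits take their spread from the tight knockdown pair alone. Without either knockdown library the spread came from the wide Ctrl pair, and 0 members passed. TP53INP1 stayed between -1.23 and -0.92, ZMAT3 between -1.04 and -0.66, and SESN1 between 0.24 and 0.71 over 14 alternatives, the ends in each case being the fits without a Ctrl library.

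**Figure D4:**
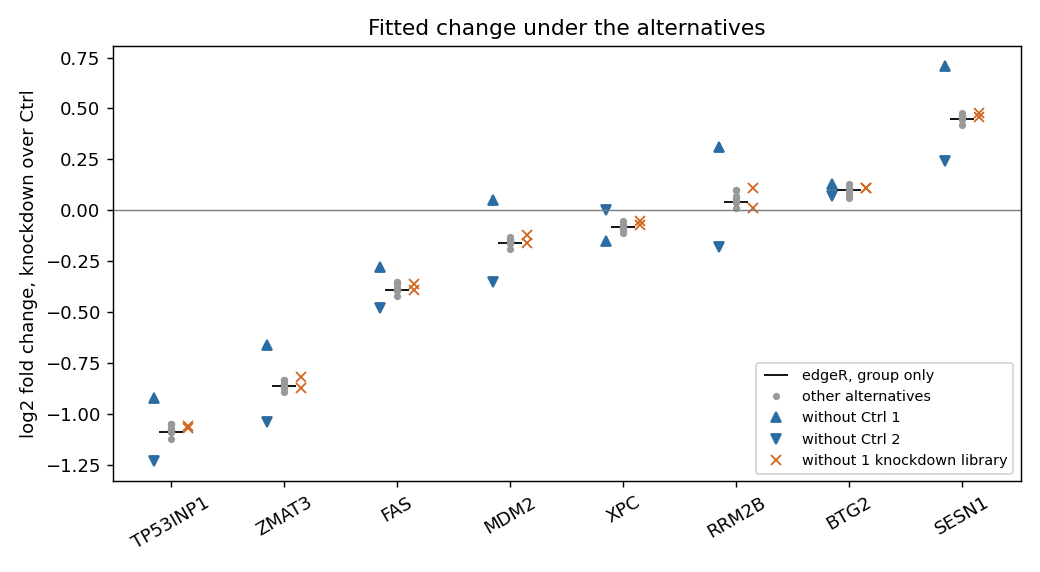
Log2 fold change of the 8 tested genes in the edgeR fit (black dash) and under 14 alternatives (blue triangles, without a Ctrl library; orange crosses, without a knockdown library; grey, other fits). TP53INP1, ZMAT3 and FAS stay below 0 and SESN1 and BTG2 above 0, while MDM2 and RRM2B cross 0 when a Ctrl library is left out.

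The p53 regulators gave no call. The MDM2 relative MDM4, which blocks p53 activation, had a log2 fold change of 0.01 ± 0.18 (SE), and the phosphatase PPM1D, which switches the damage response off, had -0.12 ± 0.18. CDKN2A, whose ARF product inhibits MDM2, had 0 reads in every library, which allows up to 0.161 to 0.201 CPM depending on the library. Of 17 genes in the list of p53 regulators 14 were tested, 0 passed in edgeR, DESeq2 or limma-voom, and 0 had an unadjusted p under 0.05. The smallest p-values belonged to the DNA-PK kinase PRKDC (-0.27 ± 0.13), HIPK2, the kinase partner of TP53INP1 (0.22 ± 0.13), and the checkpoint kinase CHEK1 (-0.26 ± 0.17), with edgeR adjusted p of 0.404, 0.512 and 0.539. Among 7 tested genes of proteins around MDM2, 0 passed in these tools and 0 had an unadjusted p under 0.05. The deubiquitinase USP2 had -0.22 ± 0.21 and RPL11, a ribosomal protein that inhibits MDM2, 0.09 ± 0.11.

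The other p53 targets also went in both directions. Of 64 listed genes 56 were tested, 31 with a negative and 25 with a positive log2 fold change, and 0 passed edgeR. At an unadjusted p under 0.05, 8 of the 56 were lower and 5 higher, beside the 8.19% and 6.79% of all tested genes, and the median was -0.07. DESeq2 called 1 lower (CDKN1A) and limma-voom 0. CDKN1A, the p21 inhibitor of cyclin-dependent kinases, had 151 and 187 reads in the Ctrl pair and 46 and 76 in the knockdown pair, a log2 fold change of -1.54 ± 0.34 (SE; adjusted p = 0.101 by edgeR). ZNF79, a zinc finger gene, had 46 and 47 reads against 105 and 93, a log2 fold change of 1.02 ± 0.24 (adjusted p = 0.113), and the antiproliferative factor TOB1 had -0.87 ± 0.23 (adjusted p = 0.146). With the GC correction 12 of the 56 passed as lower and 8 as higher, beside 14.0% and 14.2% of all tested genes in that fit.

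**Figure D5:**
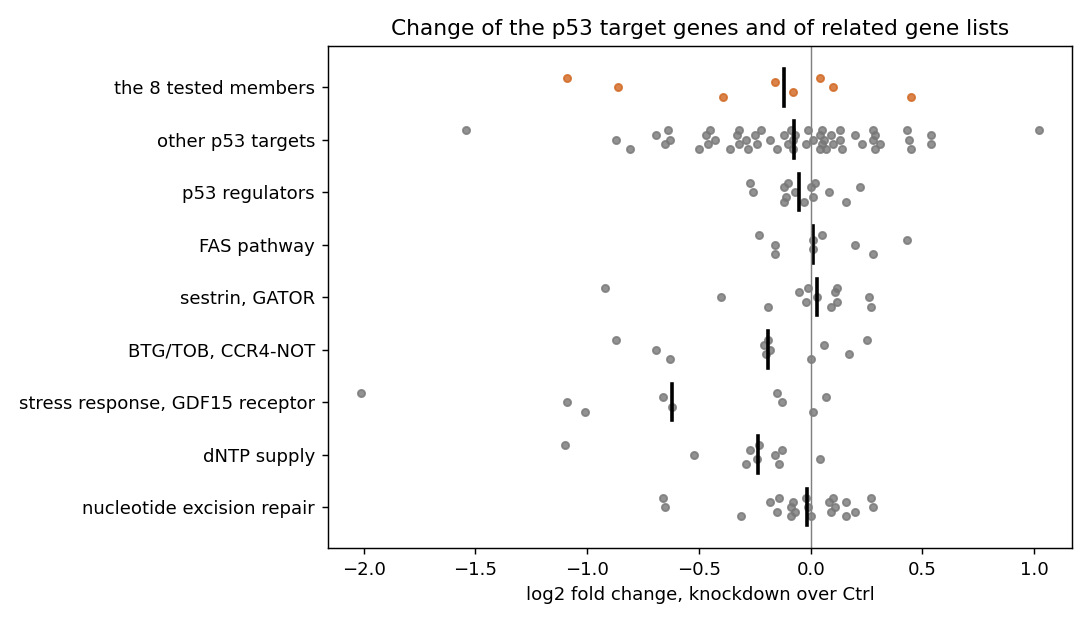
Log2 fold change (knockdown over Ctrl) of every tested gene in the members and in 8 related lists (points; black bars, medians). The members spread from -1.09 to 0.45 around a median of -0.12, and the other p53 targets from -1.54 to 1.02 around -0.07.

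Partners of the death arm gave no call. In the FAS pathway 9 of 10 genes were tested, and 0 passed in edgeR, DESeq2 or limma-voom. The adaptor FADD had a log2 fold change of 0.20 ± 0.24 (SE) and the initiator CASP8 0.01 ± 0.19, and FASLG had 0 or 1 read per library. BID, which links death receptors to mitochondria, had -0.23 ± 0.16 and the initiator CASP10 0.28 ± 0.20, with edgeR adjusted p of 0.569 and 0.609. Around TP53INP1, 6 of 7 genes were tested, and 0 passed in any of these tools or had an unadjusted p under 0.05. Its paralog TP53INP2 had -0.06 ± 0.19, and the autophagy proteins GABARAP and GABARAPL1 had -0.09 and 0.09.

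BTG2 had a log2 fold change of 0.10, while its relatives BTG1 (-0.63 ± 0.20), BTG3 (-0.69 ± 0.19) and TOB1 (-0.87 ± 0.23) were lower in both knockdown libraries. These relatives did not pass edgeR (adjusted p = 0.204, 0.155 and 0.146), and the difference from BTG2 was not tested. TOB2 had 0.17 ± 0.19. Of 11 tested genes of this family and of CCR4-NOT, 8 were negative, with a median of -0.19 and 0 calls in edgeR, DESeq2 or limma-voom. At an unadjusted p under 0.05, 3 were lower and 0 higher, beside 8.19% and 6.79% of all tested genes. Ctrl 2 differed from Ctrl 1 by -0.29 in BTG1, -0.40 in BTG3 and -0.36 in TOB1 on the log2 scale, and by -0.06 in BTG2.

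Of the other sestrins, SESN2 had -0.01 ± 0.27 and SESN3 -0.02 ± 0.19, beside 0.45 ± 0.20 for SESN1 (SE; adjusted p = 0.993, 0.983 and 0.360 by edgeR). The difference between SESN1 and its paralogs was not tested. Of 13 tested sestrin and GATOR genes 0 passed edgeR or limma-voom, and DESeq2 called 1 lower, SEC13. This was also the 1 gene that was lower at an unadjusted p under 0.05, beside 8.19% of all tested genes. SEC13, a GATOR2 subunit that also serves in the nuclear pore and in COPII coats, had 148.0 ± 25.9 CPM in the Ctrl pair and 78.3 ± 1.51 CPM in the knockdown pair (SD, n = 2 each) and -0.92 ± 0.17 on the log2 scale (SE; edgeR adjusted p = 0.0718). The GATOR2 subunits MIOS and WDR59 had -0.40 ± 0.19 and 0.27 ± 0.16.

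GDF15 is also a target of the integrated stress response, whose factors were measurable although GDF15 was near the limit of detection. ATF4, the central factor of that response, stood at 277.4 ± 32.5 CPM in the Ctrl pair and 249.3 ± 2.79 CPM in the knockdown pair (SD, n = 2 each), with a difference of -0.15 ± 0.14 on the log2 scale (SE). In this list 9 of 12 genes were tested, the median was -0.62, and ATF3, a stress-induced repressor, was the only gene that passed edgeR (-2.01 ± 0.25, adjusted p = 0.0357), with counts of 177 and 163 against 39 and 49. DESeq2 called ATF3 and DDIT4, an inhibitor of mTORC1 (-1.09 ± 0.25, edgeR adjusted p = 0.112), as lower, and limma-voom called 1 gene of this list lower. At an unadjusted p under 0.05, 5 of the 9 were lower and 0 higher, beside 8.19% and 6.79% of all tested genes. The 5 were ATF3, DDIT4, DDIT3 (-0.66), CHAC1 (-1.01) and EIF2AK3 (-0.62). The GDF15 receptor GFRAL and its co-receptor RET had at most 6 reads in any library.

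The pathways of RRM2B and XPC gave 0 calls in edgeR, DESeq2 or limma-voom among 10 and 22 tested genes. At an unadjusted p under 0.05 they held 1 and 2 lower genes and 0 higher ones, beside 8.19% and 6.79% of all tested genes. The large subunit RRM1 and the S-phase small subunit RRM2 of ribonucleotide reductase had -0.23 ± 0.17 and -0.27 ± 0.14, beside 0.04 ± 0.20 for RRM2B (SE; edgeR adjusted p = 0.594, 0.426 and 0.951). The mitochondrial thymidine kinase TK2 had -1.10 ± 0.28 (adjusted p = 0.134) from 47 to 108 reads, and the cytosolic TK1 -0.52 ± 0.23 (adjusted p = 0.357). The median over these dNTP genes was -0.23, with 9 of 10 negative. For XPC, the partners RAD23B and CETN2 had -0.01 ± 0.14 and -0.07 ± 0.30. The damage sensor DDB2, itself a p53 target (-0.65 ± 0.22, adjusted p = 0.243) and the replication protein A subunit RPA3 (-0.66 ± 0.23, 0.244) had the smallest p-values of the repair list, whose median was -0.01.

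The median profile of the 8 members, centred per gene on the log2 CPM scale, was 0.24 and 0.01 in the first and second Ctrl library and -0.03 and -0.09 in the knockdown libraries. Among other tested genes with a mean of at least 5 CPM, the 3 nearest to it by Euclidean distance over the 4 libraries were MYLK3, SF3A3 and TAF15, at distances of 0.069 to 0.070, with log2 fold changes of -0.18, -0.19 and -0.18. Over 4 libraries such likeness is a description only.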

How the data were processed

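Per the submitters' processing notes, fastp 0.13.1, HISAT2 2.1.0, featureCounts 1.6.1 and build hg38 were used. The sources used here give neither the gene annotation nor the strand setting, nor how multi-mapped reads were handled. The deposited values are whole-number counts of reads per gene symbol, with 1 column per library and 0 other value columns. The members and gene lists were chosen with earlier results of these data known.

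The counts were fitted in edgeR 4.0.16 (R 4.3.3). Low genes were removed with filterByExpr (minimum count 10, minimum total 15), which left 13572 of 28103, and libraries were scaled by TMM. A quasi-likelihood model with group as its only term was tested with Benjamini-Hochberg adjustment over all tested genes, with calls at an adjusted p under 0.05. The SE is the size of the log2 fold change over the root of the F statistic. CPM values use TMM-scaled library sizes. The common biological coefficient of variation was 0.153. Depth was 14903878 to 19129008 counts per library, and 2 libraries per group limit the precision.

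The rule for named genes took the members, AFF4, CDKN1A, MDM4, PPM1D, paralogs and partners of members, and from each list the genes past the test or else the 3 with the smallest p, of which some are not reported here. Named after their values were seen were ATF4, FASLG, GFRAL, RET, CDKN2A, TOB2, EPOR, TFRC, DDIT3, DDIT4, CHAC1, EIF2AK3, the markers at 0 and the genes that overlap a member. Positions, exonic lengths and the GC content of the longest transcript came from GENCODE v29 (GRCh38), matched by name for 25862 symbols and for 97.0% of tested genes. For the GC correction, log-CPM (prior count 2) of each library was smoothed on GC content by lowess (span 0.4) and the curve entered the model as an offset. Alternatives were 3 other scalings (RLE, upper quartile, library size only), DESeq2 1.42.0, limma-voom (limma 3.58.1), no filter, a stricter filter (5 CPM or more in 2 libraries), the replicate number as a block, the GC correction with and without that block, each library left out, and an adjusted p under 0.10.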

Additional observations from a re-analysis of the deposited data

How the results depend on the processing

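Of the 9 genes, GDF15 was too low to test except with no filter, where it had a log2 fold change of -0.39 (edgeR adjusted p = 0.829). The RLE, upper quartile and library-size scalings, the stricter filter and limma-voom left 0 members called. Members called lower numbered 2 with no filter, 2 in DESeq2, 2 with the GC correction and 1 at an adjusted p under 0.10, and 1 was called higher with the GC correction. All genes called lower and higher numbered 406 and 328 with no filter, 4 and 1 with the stricter filter, 218 and 188 in DESeq2, 1899 and 1923 with the GC correction, and 165 and 192 at an adjusted p under 0.10. AFF4 had -2.10 with the stricter filter and lost its call. The cause of these shifts was not tested.

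The labels number the libraries of both groups 1 and 2 but do not say what a number shares. Deviations of same-numbered libraries from their group means correlated at 0.29 across genes, and those of crossed numbers at -0.29. With 2 libraries per group these values mirror each other by construction, so they do not show what a number shares. The part of the GC trend in this correlation was not tested. With the replicate block 2 members were called lower, beside 480 genes lower and 408 higher. With the replicate block and GC correction together 3 members were called lower and 1 higher, beside 2589 genes lower and 2663 higher.

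With 1 library left out, members called lower numbered 0 to 4 and higher 0 to 2, and all genes called lower 11 to 3315 and higher 35 to 3407. The median of the members ran from -0.26 to -0.12, MDM2 from -0.35 to 0.05 and RRM2B from -0.18 to 0.31. The median of the other p53 targets ran from -0.10 to -0.02, and was -0.04 with library-size scaling, the stricter filter and both GC corrections. With a library left out, the remaining lone library is taken to vary as the other group does.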
